A study of Mus musculus with 23 samples.

Results

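Subclones 18 and 19 of LLC, the Lewis lung carcinoma line of the mouse, were set against each other directly, with 3 arrays each, which is 6 of the 23 arrays of the series. The pair was picked from results of these data already known, as the most divergent subclones that share low Bgn and Col4a5. The labels served only to group the arrays. Per the labels, both were isolated from the parental LLC culture by limiting dilution, so each group is 1 clone. All groups were grown in DMEM with 10% fetal bovine serum and antibiotics, and were then kept for 24 h in a serum-free expression medium, the step in which conditioned medium is made. Total RNA was hybridised to Affymetrix arrays. The other 6 subclones (2, 3, 6, 23, 24 and 28) had 17 arrays, 2 for subclone 6 and 3 for each of the rest, and had the same culture and treatment. The labels name no genotype, parental sample or other treatment, and they describe repeat arrays as biological replicates without naming separate cultures, so p-values measure only the spread between these arrays, which may be technical.

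A carcinoma line holds cells with both epithelial and mesenchymal traits. Keratins 8 and 18 pair to form the intermediate filaments of simple epithelia, while PDGF receptor beta (Pdgfrb) is a tyrosine kinase typical of pericytes and fibroblasts. Carbonic anhydrase 9 (Car9) is a membrane enzyme that regulates pH and a standard target of hypoxia-inducible factor. Stromelysin 1 (Mmp3) is a secreted protease that cleaves many matrix proteins. Biglycan (Bgn) and the collagen IV alpha 5 chain (Col4a5) are matrix proteins encoded on the X chromosome.

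Levels are given as log2(intensity + 16), in the arbitrary units of the deposited intensities, with 1 probe set for each of 18193 genes. Folds on this scale are too small for dim genes, and levels of different genes cannot be set against each other. The lowest level printed below, 4.09, corresponds to a deposited value of 1. Array medians of the intensities lay between 41.69 and 43.3 in subclone 18 and between 42.94 and 45.17 in subclone 19. The 5th percentile lay between 2.62 and 2.76 in subclone 18, against 2.29 to 2.35 in subclone 19, which touches only the low end of the scale. No array of the pair stood apart from its group. The root mean square log2 distance averaged 0.21 between arrays of subclone 18 and 0.209 between arrays of subclone 19, against 0.461 between arrays of 18 and 19.

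Of 18193 genes, 535 (2.94%) lay apart between the subclones, at a Benjamini-Hochberg adjusted p under 0.05 in limma and an at least 2-fold difference. There were 181 genes (0.995%) higher in subclone 18 and 354 (1.95%) lower. Because the pair was chosen with its divergence known, these counts are a description, and no p-value is given for single genes between 18 and 19. All 535 had arrays that did not overlap between the subclones, against 46.6% of all genes tested. As for the label of most divergent, it held for each subclone against all others and not for the pair itself. Averaged over its 7 pairings, subclone 18 had 665.9 genes apart and subclone 19 had 499.1, the highest and next highest of the 8 subclones. The direct pair ranked 8 of 28, and subclones 2 and 18 had the most genes apart, 819.

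Setting each level beside the 6 other subclone means shows which subclone of the pair departed. In 219 of the 535 genes only subclone 18 lay outside the range of the other means, 62 of them higher in 18 and 157 lower. In 105 genes only subclone 19 lay outside, and in 130 both did so on opposite sides. Both lay outside on the same side in 33 genes, and in 48 neither did. The departures of subclone 18 therefore outnumbered those of subclone 19, and most of them were losses relative to the other subclones.

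**Figure D1:**
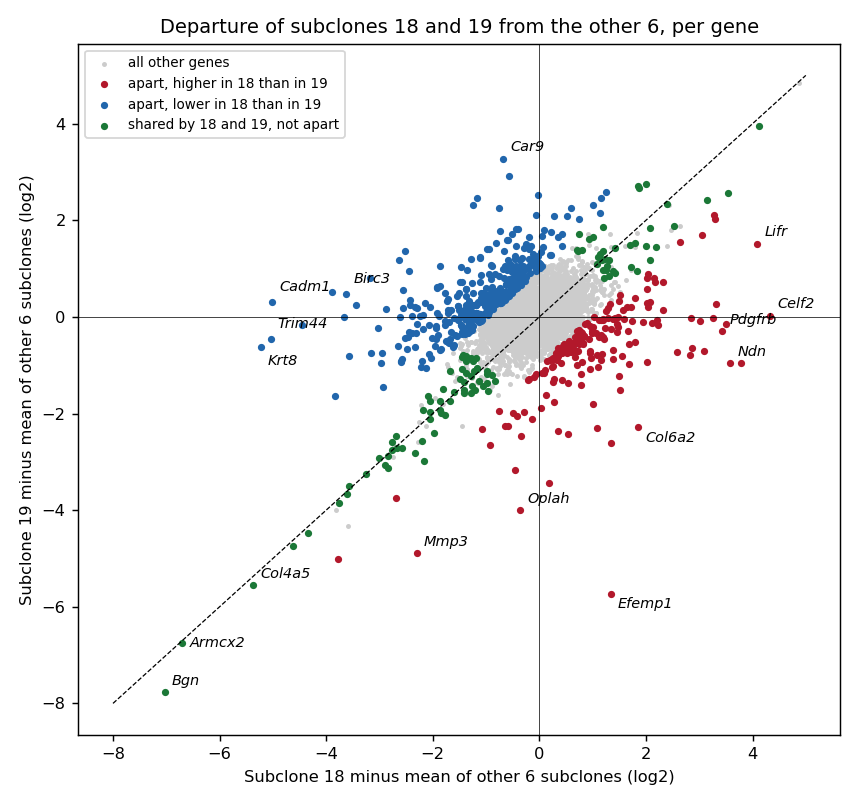
Each point is 1 gene, with the log2 difference of subclone 18 from the mean of the other 6 subclones on the horizontal axis and that of subclone 19 on the vertical axis. Red and blue points are the 181 genes higher and the 354 genes lower in 18 than in 19, green points are genes shared by the pair and not apart between 18 and 19, and the dashed line marks equal departure. Krt8 and Cadm1 lie far below the mean of the other 6 subclones in 18, Efemp1 and Oplah in 19, and Bgn and Armcx2 in both alike. Krt8 in 19 (-0.61) and Oplah in 18 (-0.37) are below them too, by less.

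Keratin 8 was the epithelial gene that separated the pair. Krt8 was at 5.59, 5.66 and 5.86 in subclone 18, against 10.35, 10.31 and 10.30 in subclone 19 and 10.41 to 11.38 in the other 17 arrays (median 10.90). Both subclones were below the other 17 arrays, 19 by a narrow margin. The 3 arrays of 18 lay far below all 20 others, a log2 difference between 18 and 19 of -4.62 ± 0.059 (SE), or 24.6-fold lower in 18. In bulk RNA, fewer cells with a transcript and less of it per cell cannot be told apart. Its filament partner Krt18, the next protein-coding gene on chromosome 15, was at 10.80, 10.83 and 10.83 in subclone 18 and at 11.45, 11.43 and 11.49 in subclone 19, a difference of -0.63 ± 0.040. So the arrays of the pair did not overlap for either keratin, while Krt18 was only 1.55-fold lower in 18. Krt19 (0.32 ± 0.146) and Krt7 (-0.06 ± 0.134), keratins that can also pair in simple epithelia, did not pass the test.

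Across the list of 34 measured epithelial keratin and junction genes, 2 were higher and 4 lower in subclone 18, against 17.4% higher and 21.3% lower over all genes tested at the same adjusted p. The median difference was 0.01. The 2 higher genes were Epcam, an epithelial adhesion molecule, at 7.99 ± 0.125 in 18 and 7.05 ± 0.042 in 19 (SD, n = 3 each), and Pkp2, a desmosomal plaque protein (0.38 ± 0.045). With its probe sets averaged, Pkp2 (0.14) did not pass the test. Elf3, an epithelial transcription factor, was lower (-0.83 ± 0.123). Cdh1, which encodes E-cadherin and defines epithelial junctions, averaged 4.43 ± 0.119 in 18 and 4.37 ± 0.108 in 19 and lay near the low end of the scale in all subclones.

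Pdgfrb moved the other way from Krt8. It was at 8.11, 8.23 and 8.23 in subclone 18, against 4.30, 4.67 and 4.40 in subclone 19 and 4.24 to 5.48 in the other arrays (median 4.61). Only the arrays of 18 were high, 13.3-fold above 19 (log2 difference 3.73 ± 0.118). Pdgfra, the receptor that binds PDGF-A chains, was lower in 18, at 8.07 ± 0.098 against 8.84 ± 0.063 in 19 (-0.76 ± 0.051). Of the ligands, Pdgfa was slightly higher (0.36 ± 0.057), whereas Pdgfb (0.06 ± 0.183), Pdgfc (0.05 ± 0.040) and Pdgfd (0.14 ± 0.140) did not pass the test. In all, 2 of the 8 PDGF ligands and receptors were higher and 1 lower in subclone 18, beside 17.4% and 21.3% over all genes.

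Mesenchymal genes were more often higher than lower in subclone 18, 11 against 4 of 29 measured, beside 17.4% higher and 21.3% lower over all genes tested. The median difference was 0.17. Only Prrx2, a homeobox gene of mesenchyme, passed 2-fold, at 7.70, 7.75 and 7.64 in 18 and 5.07, 5.60 and 5.69 in 19 (2.24 ± 0.139). The arrays of 18 lay above those of the other 6 subclones, whose highest was 6.89. N-cadherin (Cdh2) differed by 1.00 ± 0.073, the fibroblast activation protease Fap by 0.80 ± 0.115, tropomyosin 1 (Tpm1) by 0.65 ± 0.052 and the repressor Zeb2 by 0.59 ± 0.078. These were named for the size of their differences, and the 4 lower members differed by less. The 5 probe sets of Zeb2 ranged from 0.10 to 0.86, and Fap reached a level of 7 in no subclone. Vimentin (Vim), the filament protein of mesenchymal cells, was at 13.67 ± 0.042 in 18 and 13.71 ± 0.009 in 19.

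**Figure D2:**
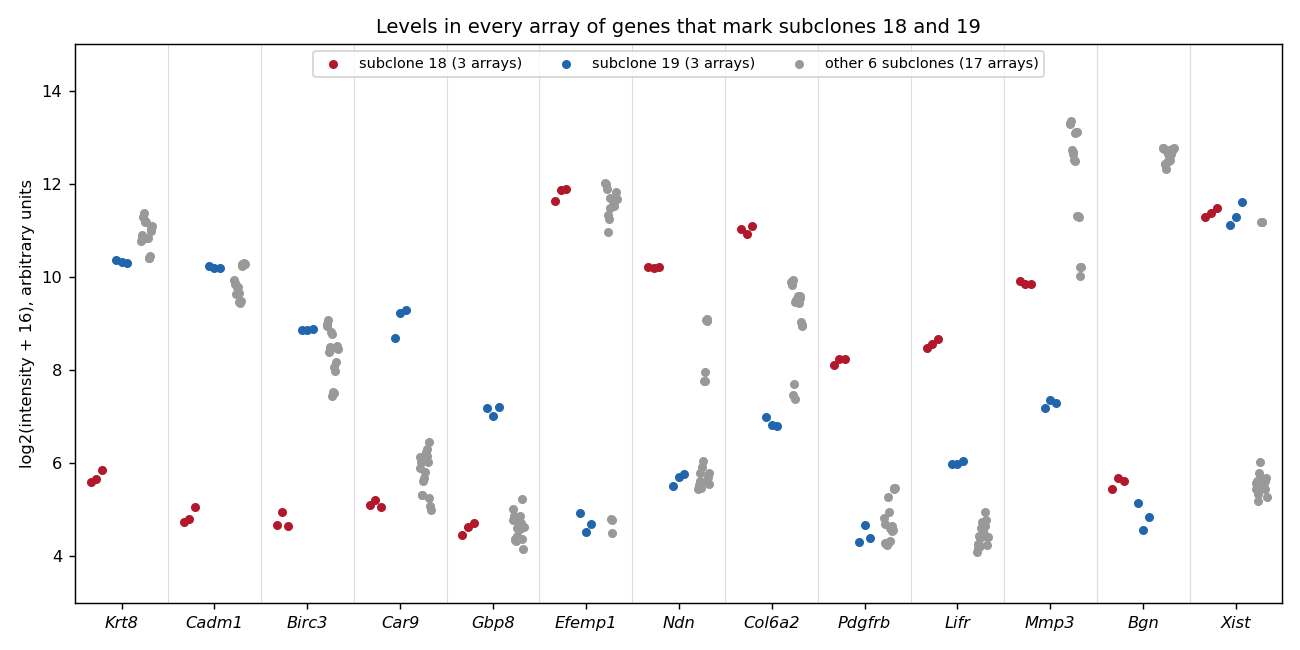
Points are single arrays of subclone 18 (red), subclone 19 (blue) and the other 6 subclones (grey), and the vertical axis is the level as log2(intensity + 16) in arbitrary units. The arrays of 18 stand alone for Krt8, Cadm1, Birc3 and Pdgfrb, those of 19 stand alone for Car9 and Gbp8, and both are low for Bgn.

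The largest single difference was in Efemp1, which encodes the matrix glycoprotein fibulin 3. It was at 11.62, 11.87 and 11.88 in subclone 18, against 4.93, 4.52 and 4.70 in subclone 19, 135-fold higher in 18 (7.07 ± 0.111). The other subclones were high as well (median 11.61) except subclone 28, so this was a low level in 19. Oplah, the 5-oxoprolinase of the glutathione cycle, was also far lower in 19, with 9.51, 9.57 and 9.52 in 18, against 5.71, 6.18 and 5.79 in 19 and 9.75 to 10.22 elsewhere (3.63 ± 0.080). Both subclones were below all other arrays for Oplah, 18 by little. The selenium transport protein Selenop was 12.4-fold higher in 18, at 11.07 ± 0.08 against 7.45 ± 0.054 in 19, where every other array was at 8.71 or more.

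Other genes were high in subclone 18 against a low level almost everywhere. Vgll3, a cofactor of TEAD transcription factors, was at 8.25, 8.25 and 8.28 in 18 and at 4.55, 4.61 and 4.67 in 19, and no other array passed 5.31. Runx1t1, a transcriptional corepressor, was at 9.18 ± 0.138 in 18 and 4.45 ± 0.117 in 19, with no other array above 6.44. The RNA-binding protein gene Celf2 was at 9.73, 9.82 and 10.02 in 18 and at 5.64, 5.60 and 5.42 in 19 (4.30 ± 0.114). Among the rest, the synaptotagmin Syt13 (3.50 ± 0.093), the ubiquitin ligase gene Pdzrn3 (3.61 ± 0.105) and the adhesion receptor Adgrl2 (3.31 ± 0.073) lay above all other arrays in 18, whereas the amyloid precursor gene App (3.80 ± 0.074) and the retinoic acid binding protein Crabp1 (3.95 ± 0.074) also reached such levels in other subclones.

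The imprinted gene Ndn, which encodes the growth suppressor necdin, was at 10.20, 10.19 and 10.21 in subclone 18, against 5.50, 5.71 and 5.77 in subclone 19. The other arrays ran from 5.44 to 9.10 (median 5.79), so 18 was the highest. Of 26 measured imprinted genes, 6 were higher and 2 lower in 18 (17.4% and 21.3% over all genes), with 1 past 2-fold, Ndn itself. Differences just under 2-fold were seen in the zinc finger gene Peg3 (0.99 ± 0.053) and in Peg12 (0.99 ± 0.123), and the cell cycle inhibitor Cdkn1c (0.72 ± 0.140) and the adaptor Grb10 (0.44 ± 0.044) differed by less.

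In the other direction, the adhesion molecule Cadm1 was at 4.75, 4.80 and 5.07 in subclone 18, against 10.23, 10.18 and 10.19 in subclone 19 and 9.45 to 10.30 elsewhere. It was 40.3-fold lower in 18 (-5.33 ± 0.064), and 18 was the only subclone without it at that level, although its 4 probe sets differed by -5.33 to -0.42. The same form held for Trim44 (-4.59 ± 0.063), the zinc finger gene Zfp518a (-4.40 ± 0.081), the sestrin Sesn3 (-4.28 ± 0.060), the cholesterol exporter Abca1 (-3.69 ± 0.072) and the homeobox gene Hoxa11 (-3.67 ± 0.089). In each of these the highest array of 18 was at 4.93 or less and every other array of the series was at 7.46 or more. Phex, an endopeptidase of phosphate balance, was at 6.52 ± 0.025 in 18 and 10.50 ± 0.113 in 19, and the milk protein gene Csn3 was at 5.01 ± 0.077 in 18 and 8.91 ± 0.099 in 19. Atp6v0e2, a subunit of the vacuolar proton pump, was 13.9-fold lower in 18, at 4.66 ± 0.181 against 8.46 ± 0.039 in 19.

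Some of the differences in that direction came from high levels in subclone 19. Blnk, an adaptor of B-cell receptor signalling, was at 4.91, 4.57 and 5.09 in 18, against 8.31, 8.32 and 8.39 in 19, and no other array passed 6.48. Serpinb7, an intracellular serine protease inhibitor, was at 4.36, 4.39 and 4.25 in 18, against 8.04, 7.90 and 7.99 in 19, with no other array above 6.70. That was not so for the zinc finger gene Zfp503, at 4.53 ± 0.026 in 18 and 8.09 ± 0.065 in 19. Both lay inside the range of the other subclone means, 4.23 to 10.03, and its other probe set differed by only -0.65.

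In 56 genes (0.308% of those tested) the arrays of subclone 18 lay on one side and those of subclone 19 on the other side of all 17 other arrays, 20 of them higher in 18. The collagen VI chains were among them. Col6a2 was at 11.04, 10.92 and 11.08 in 18, against 6.99, 6.83 and 6.80 in 19 and 7.38 to 9.93 elsewhere (4.14 ± 0.071). Col6a1, which lies next to it on chromosome 10, was at 11.05, 11.09 and 11.18 in 18, against 8.29, 8.36 and 8.24 in 19 and 8.62 to 10.66 elsewhere (2.81 ± 0.063). Both chains were thus at the top of the series in 18 and at its bottom in 19. Marcks, an actin-binding substrate of protein kinase C, was at 10.86 ± 0.01 in 18 and 7.83 ± 0.028 in 19 (3.03 ± 0.069), and Tbx4, a transcription factor of hindlimb and lung mesenchyme, was at 7.13 ± 0.077 in 18 and 4.42 ± 0.18 in 19 (2.71 ± 0.080). The potassium channel Kcnh1 (-2.91 ± 0.107) and the membrane protein gene Mfsd6 (-2.34 ± 0.130) were split the opposite way.

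Hypoxia and glycolysis genes were lower in subclone 18 across most of their list. Hypoxia-inducible factor is a transcription factor that is stabilised when oxygen is short and that raises glucose transporters, glycolytic enzymes and its own prolyl hydroxylases. Of 43 measured members, 33 were lower in 18 and 4 higher, 8 of the lower ones past 2-fold, and the median difference was -0.48 against 0.00 over all genes. Arrays of the pair did not overlap in 38 of the 43, against 46.6% of all genes. Over all genes tested, 21.3% were lower in 18 and 17.4% higher.

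Car9 led the list. It was at 5.09, 5.20 and 5.06 in subclone 18, against 8.69, 9.23 and 9.28 in subclone 19 and 5.0 to 6.46 in the other arrays (median 5.90). Only 19 was high, so the 15.5-fold difference (-3.95 ± 0.138) came from 19. Its relative Car12 differed by -0.34 ± 0.120.

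In the members with the next largest differences, subclone 18 was the low one. Ero1a, the oxidase that drives disulfide formation in the endoplasmic reticulum, was at 10.91, 10.55 and 10.83 in 18 and at 12.15, 12.45 and 12.43 in 19, where the median elsewhere was 12.43. The glucose transporter Slc2a3 was at 6.33, 6.50 and 6.41 in 18, against 7.76, 7.83 and 7.91 in 19 and at least 7.13 elsewhere (-1.42 ± 0.071). The prolyl hydroxylase Egln3, a negative regulator of the factor, was at 10.51 ± 0.157 in 18 and 11.84 ± 0.123 in 19. In these genes 18 was below all other arrays of the series, while 19 was within their range. Phosphofructokinase (Pfkp, -1.38 ± 0.069), the transporter Slc2a1 (-0.89 ± 0.065) and the angiogenic factor Vegfa (-0.79 ± 0.092) were lower in 18 too. The transcript of the factor's oxygen-regulated subunit, Hif1a, was slightly higher in 18 (0.16 ± 0.060), but its probe sets averaged (0.08) did not pass the test. The 3 other higher members, named after their values were seen, were Aldoc (0.94), Angptl4 (0.67) and Pfkfb4 (0.18). The 4 higher members became 2 without replicate 2 or 3 of subclone 18 or replicate 2 of subclone 19.

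Genes of the response to stress in the endoplasmic reticulum and to amino acid shortage were also lower in subclone 18, 26 of 38 measured, with 3 higher and a median difference of -0.32. Of the lower members, 4 passed 2-fold. Lower genes made up 21.3% of all tested and higher ones 17.4%. Nupr1, a stress-induced chromatin protein, was at 7.76, 7.85 and 7.63 in 18, against 9.41, 9.32 and 9.47 in 19 and 9.94 to 10.69 elsewhere, so that both subclones were below the rest and 18 the more so (-1.65 ± 0.059). Dnajb9, a reticulum chaperone, was at 10.23, 10.37 and 10.33 in 18, against 11.48, 11.46 and 11.44 in 19, with 10.74 to 11.35 elsewhere (-1.15 ± 0.063). There the pair stood on opposite sides of all other arrays. Trib3, a pseudokinase induced by Atf4, differed by -1.12 ± 0.083, the transcription factor Atf3 by -1.08 ± 0.056 and Edem1, of reticulum-associated degradation, by -0.96 ± 0.045. The 3 higher members differed by less than these.

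**Figure D3:**
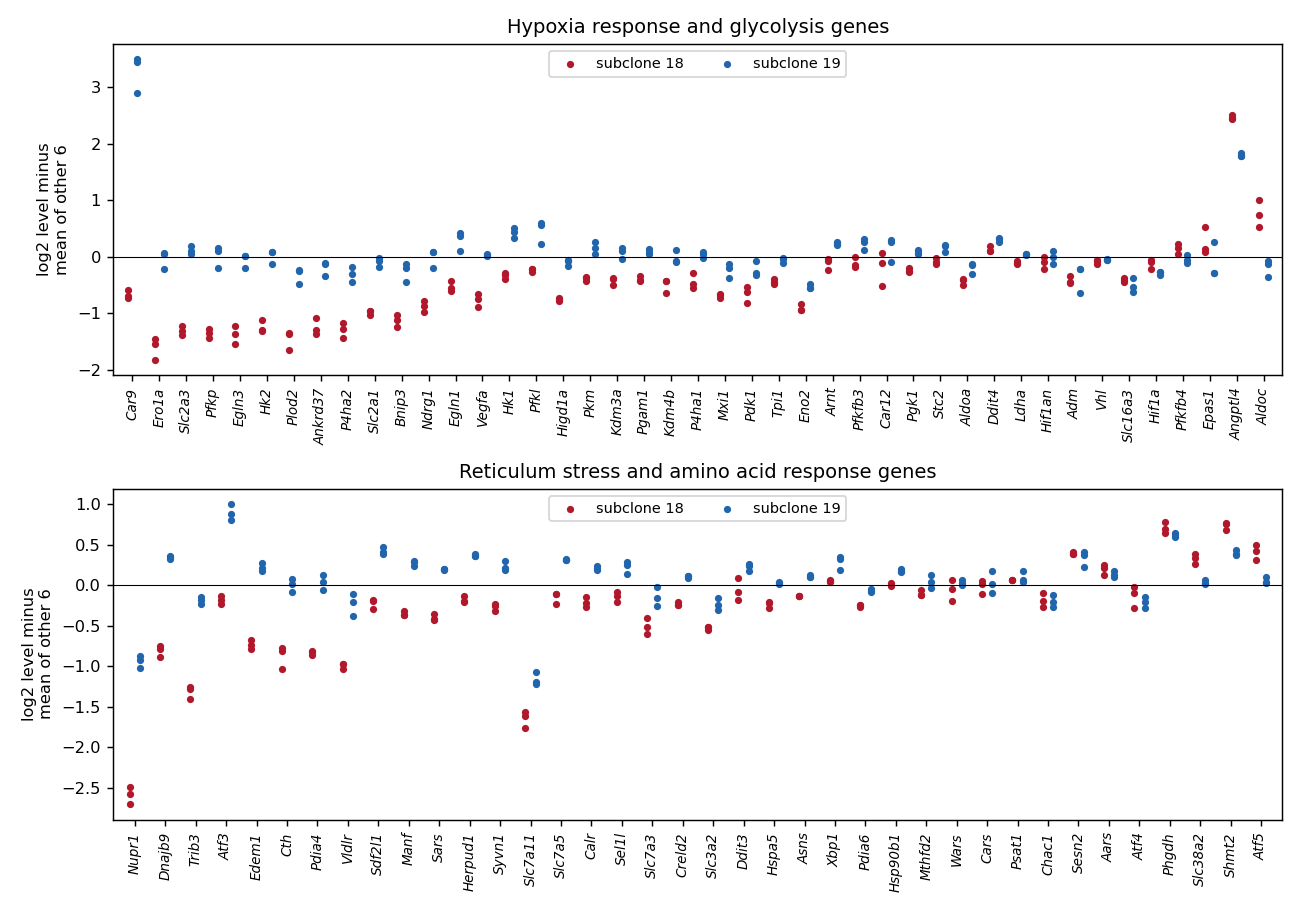
Points are single arrays of subclone 18 (red) and subclone 19 (blue), as the log2 level minus the mean of the other 6 subclones, for each measured member of 2 gene lists ordered by the difference between 18 and 19. In both lists most of the red points lie below the blue ones, 33 of 43 members in the upper panel and 26 of 38 in the lower being lower in 18.

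Genes of DNA replication and mitosis were mostly higher in subclone 18, 31 of 44 measured and 3 lower, beside 17.4% and 21.3% over all genes. The median difference was 0.33 and none passed 2-fold. Rrm1, the large subunit of ribonucleotide reductase, was at 10.91, 11.04 and 11.05 in 18 and at 10.19, 10.01 and 9.91 in 19 (0.97 ± 0.065). The arrays of 18 were above all others for Rrm1, whose highest elsewhere was 10.73. The proliferation marker Mki67 was at 11.05 ± 0.029 in 18 and 10.29 ± 0.013 in 19, cyclin E2 (Ccne2) at 9.80 ± 0.067 in 18 and 9.0 ± 0.144 in 19, and the checkpoint kinase gene Bub1b at 9.50 ± 0.021 in 18 and 8.86 ± 0.069 in 19. Cyclin E1 (Ccne1) differed by 0.68 ± 0.087. The members named are those with the largest differences, and the 3 lower ones differed by less.

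Sterol and fatty acid synthesis genes were higher in subclone 18 in 15 of 30 measured and lower in 5, beside 17.4% and 21.3% over all genes. The median difference was 0.27. Idi1, which isomerises isopentenyl diphosphate, was at 10.83, 10.88 and 10.92 in 18 and at 9.88, 9.66 and 9.79 in 19 (1.10 ± 0.058), and it was the only member past 2-fold. Hmgcs1, which makes HMG-CoA, differed by 0.96 ± 0.057, the sterol dehydrogenase Nsdhl by 0.81 ± 0.073, the citrate lyase Acly by 0.74 ± 0.051 and the desaturase Fads2 by 0.71 ± 0.174. For Idi1 and Hmgcs1 the levels of 18 lay inside the range of the other arrays. The 5 lower members differed by less than those named here.

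**Figure D4:**
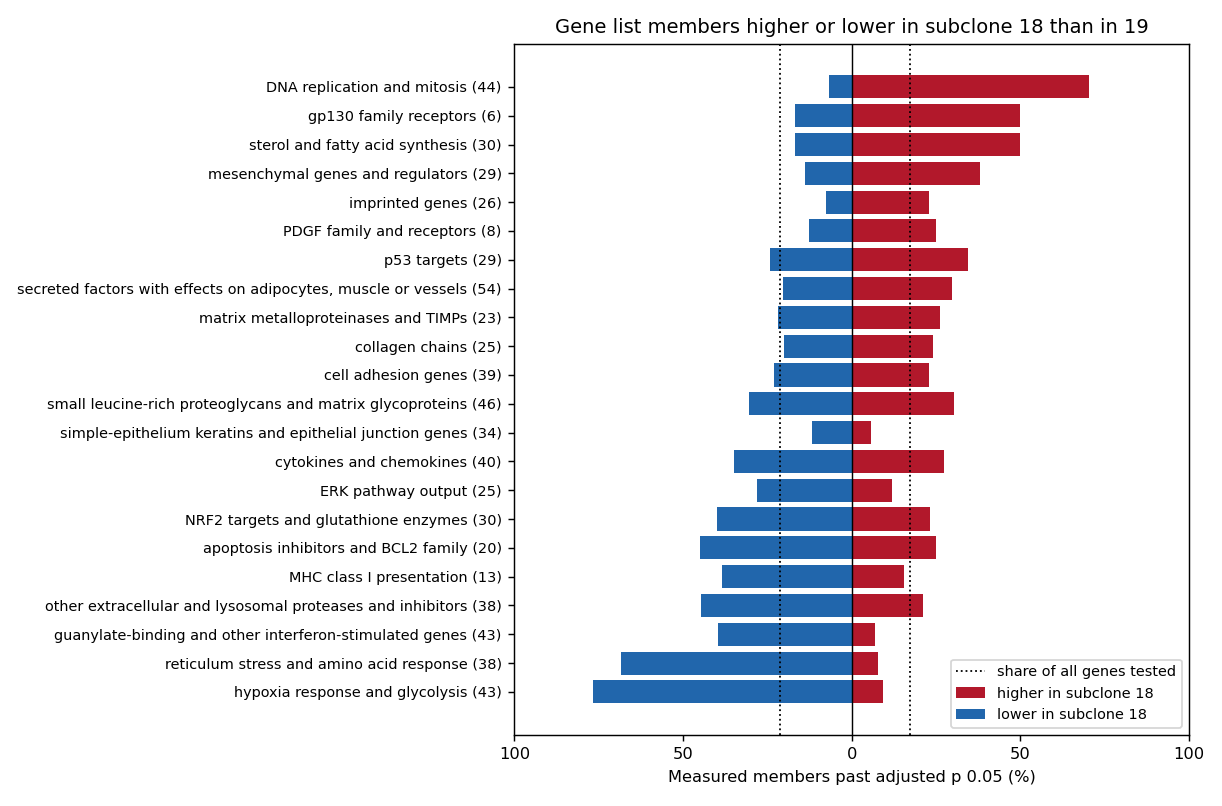
Bars give, for each gene list with its number of measured members in brackets, the percentage of members higher (red, to the right) and lower (blue, to the left) in subclone 18 than in 19 at an adjusted p under 0.05. Dotted lines are the shares over all genes tested, 17.4% higher and 21.3% lower, which DNA replication genes exceed to the right and hypoxia and reticulum stress genes to the left.

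Mmp3 and 2 genes of its cluster, Mmp12 and Mmp13, were low in both subclones. Mmp3 was at 9.92, 9.86 and 9.85 in subclone 18, against 7.18, 7.36 and 7.29 in subclone 19 and 10.03 to 13.34 in the other arrays (median 12.64). All 6 arrays of the pair were thus below all 17 others, but 18 was only narrowly below subclone 24, whose lowest array was at 10.03. Subclone 18 was 6.06-fold above 19 (2.60 ± 0.050). The collagenase Mmp13, with 2 protein-coding genes between it and Mmp3 on chromosome 9, had the same order, at 7.21, 7.36 and 7.26 in 18, against 6.19, 6.18 and 6.29 in 19 and 7.52 to 11.26 elsewhere. For Mmp13 the pair differed from the other 6 subclones by -3.22 ± 0.047 on the log2 scale. That SE measures only the spread between arrays, and the means of the other 6 subclones ran from 7.67 to 11.22. The macrophage elastase gene Mmp12 was at the low end in both, at 4.76 ± 0.237 in 18 and 4.59 ± 0.232 in 19, against 5.16 to 10.53 elsewhere. Mmp10, also of this cluster, was at 6.52 ± 0.03 in 18 and 5.67 ± 0.059 in 19 (0.85 ± 0.084). The other arrays ran from 5.66 to 8.20 for Mmp10, so 18 lay inside that range and 19 at its lower end.

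The proximal promoters of these genes and of Car9 are shown because Car9 was high in subclone 19 alone while the collagenase and stromelysin were lowest there. They are RefSeq sequences of build GRCm38.p6, all on the plus strand, written 5′ to 3′. Capitals mark matches to TGAGTCA or its reverse complement TGACTCA, the site of AP-1, and to ACGTG or its reverse complement CACGT, the core of the hypoxia response element.
Car9, chr4:43506776-43507075: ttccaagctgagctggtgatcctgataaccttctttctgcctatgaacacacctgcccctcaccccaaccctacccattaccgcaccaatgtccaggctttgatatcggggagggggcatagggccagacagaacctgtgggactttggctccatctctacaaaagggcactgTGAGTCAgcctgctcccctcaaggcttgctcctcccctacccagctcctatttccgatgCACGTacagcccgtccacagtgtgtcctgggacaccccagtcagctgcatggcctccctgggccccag
Mmp3, chr9:7445572-7445871: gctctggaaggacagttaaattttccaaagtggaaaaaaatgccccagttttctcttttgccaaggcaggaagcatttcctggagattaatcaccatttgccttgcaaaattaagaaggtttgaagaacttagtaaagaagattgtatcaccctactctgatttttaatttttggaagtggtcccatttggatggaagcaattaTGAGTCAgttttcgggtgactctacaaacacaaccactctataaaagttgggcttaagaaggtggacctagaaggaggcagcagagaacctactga
Mmp13, chr9:7272264-7272563: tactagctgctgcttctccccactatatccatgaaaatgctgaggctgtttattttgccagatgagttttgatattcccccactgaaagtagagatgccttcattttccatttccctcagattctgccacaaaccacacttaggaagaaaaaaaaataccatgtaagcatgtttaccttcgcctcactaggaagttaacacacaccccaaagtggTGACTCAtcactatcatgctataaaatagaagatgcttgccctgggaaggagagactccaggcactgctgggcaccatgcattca
In Car9 the AP-1 match began 77 bases and the hypoxia core 18 bases before the annotated start. The AP-1 match began 46 bases before the start in Mmp3 and 35 bases before it in Mmp13, and neither window held the hypoxia core. Of 32851 mouse promoters of the same length, 19.62% held the hypoxia core and 5.2% an AP-1 match. The promoter windows of Krt8, Bgn and Col4a5 held none of these letters. A match is a description of the sequence and shows no binding.

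Over the 23 measured matrix metalloproteinases and their inhibitors, 6 were higher and 5 lower in subclone 18, beside 17.4% and 21.3% over all genes. The median difference was 0.04. Reck, a membrane-anchored inhibitor of these proteases, was at 4.60, 4.62 and 4.60 in 18, against 7.21, 7.41 and 7.25 in 19 and 6.38 to 7.62 elsewhere, so 18 alone was low (-2.68 ± 0.081). Gelatinase B (Mmp9) was at 5.27, 5.44 and 5.12 in 18 and at 7.27, 7.24 and 7.27 in 19 (-1.99 ± 0.079). The inhibitor Timp3 was higher in 18, at 6.89 ± 0.101 against 5.20 ± 0.145 in 19. Timp2 was slightly lower in 18 (-0.25 ± 0.047), and Timp1 (-0.01 ± 0.040) and the collagenase Mmp8 (0.03 ± 0.174) did not pass the test.

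Other extracellular and lysosomal proteases and inhibitors were lower in 17 and higher in 8 of 38 measured (median -0.11), beside 21.3% and 17.4% over all genes. Serpinb2, the inhibitor of plasminogen activators that neighbours Serpinb7 on chromosome 1, was at 4.49, 4.65 and 4.55 in 18 and at 6.99, 7.14 and 7.05 in 19 (-2.50 ± 0.116), and both serpins were thus near the floor in 18. The membrane protease Adam8 was at 7.27 ± 0.154 in 18 and 9.49 ± 0.134 in 19, and cathepsin H (Ctsh) at 4.85 ± 0.068 in 18 and 7.06 ± 0.092 in 19. Adamts1, a protease of proteoglycans, ran the other way, at 10.71, 10.78 and 10.87 in 18, against 8.44, 8.35 and 8.50 in 19 and 8.60 to 9.79 elsewhere. Here again the pair stood on opposite sides of all other arrays.

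Among 46 proteoglycans and matrix glycoproteins, 14 were higher and 14 lower in subclone 18, beside 17.4% and 21.3% over all genes. Their median was 0.08. Nidogen 2 (Nid2), a basement membrane linker, was at 6.79, 7.12 and 7.35 in 18 and at 4.41, 4.09 and 4.14 in 19, with no other array above 4.43. Thrombospondin 1 (Thbs1) was at 7.75 ± 0.084 in 18 and 5.68 ± 0.106 in 19. Both were highest in 18. Ecm1 (-1.43 ± 0.079) and the glypican Gpc1 (-1.30 ± 0.051) were lower in 18. Of 25 collagen chains, 6 were higher and 5 lower (median 0.09), beside the same shares over all genes, and only the collagen VI chains passed 2-fold. Col8a1 (0.53 ± 0.040), Col7a1 (0.46 ± 0.092) and Col18a1 (-0.47 ± 0.052) differed by less.

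Cell adhesion genes were higher in 9 and lower in 9 of 39 (median -0.02), beside 17.4% and 21.3% over all genes. Beside Cadm1, the integrin chain Itgb7 was at 8.67, 8.66 and 8.74 in subclone 18, against 10.66, 10.74 and 10.71 in subclone 19 and 9.79 to 10.55 elsewhere, again with the pair at opposite ends (-2.01 ± 0.047). Ncam1 was lower in 18 (-1.39 ± 0.091), and the integrin chain Itgb8 (1.67 ± 0.117) and the sialomucin Cd34 (1.27 ± 0.098) were higher.

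Interferon-stimulated genes were lower in 17 and higher in 3 of 43 measured, a share of lower members above that of all genes, with a median of -0.13. Of the 5 members lower by at least 2-fold, 4 were guanylate-binding proteins, GTPases of cell-autonomous defence. The 1 member higher by at least 2-fold was Ifi47 (1.11 ± 0.170), named after its values were seen. Gbp8 was at 4.46, 4.62 and 4.71 in subclone 18, against 7.19, 7.02 and 7.20 in subclone 19, and no other array passed 5.23. Gbp2 was at 7.11 ± 0.043 in 18 and 8.78 ± 0.054 in 19, Gbp3 at 5.39 ± 0.05 in 18 and 6.96 ± 0.117 in 19, and Gbp7 at 7.27 ± 0.049 in 18 and 8.56 ± 0.077 in 19. Subclone 19 was above every other array for all 4. Gbp2, Gbp3 and Gbp7 lie close together on chromosome 3, where the median over expressed genes was -0.31, and its part in these values was not tested. The exonuclease Isg20 was also lower in 18 (-1.17 ± 0.056). Of 13 genes of antigen presentation by MHC class I, 2 were higher and 5 lower in 18 (median 0.02). For both lists, the shares over all genes were 17.4% higher and 21.3% lower. The 5 members of antigen presentation with the largest differences past the adjusted p are named next. They included the peptide transporter Tap2 (-0.86 ± 0.104), its partner Tapbp (-0.60 ± 0.050), the checkpoint ligand Cd274 (-0.88 ± 0.139) and, on the higher side, the transactivator Nlrc5 (0.58 ± 0.096). The heavy chain H2-K1 differed by -0.51 ± 0.057, but by 0.12 when all its probe sets were averaged.

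Cxcl2, Cxcl3 and Cxcl15, chemokines of the family that attracts neutrophils, were higher in subclone 18. Cxcl2 was at 9.13, 9.0 and 8.99 in 18, against 5.69, 5.66 and 5.65 in 19 and 5.79 to 9.10 elsewhere (median 8.79), so 19 was the lowest of the series. Cxcl3, a neighbour on chromosome 5, was at 7.49 ± 0.094 in 18 and 6.09 ± 0.095 in 19, and Cxcl15 at 6.05 ± 0.241 in 18 and 4.81 ± 0.047 in 19. The acute-phase protein gene Saa3 was at 12.06 ± 0.023 in 18 and 10.12 ± 0.104 in 19. The T-cell chemoattractant Ccl5 was lower in 18, at 5.19 ± 0.129 against 6.91 ± 0.061 in 19. In the whole list of 40 cytokines and chemokines, 11 were higher and 14 lower in 18 (median -0.04), beside 17.4% and 21.3% over all genes.

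Of 54 secreted factors with reported effects on adipocytes, muscle or vessels, 16 were higher and 11 lower in subclone 18 (median 0.05), 7 and 3 of them past 2-fold. Beside these stand 17.4% higher and 21.3% lower over all genes. Inhbb, the beta B chain of activin and inhibin, was at 8.29, 8.29 and 8.21 in 18, against 5.53, 5.25 and 5.16 in 19 and 5.21 to 6.75 elsewhere. It was 7.72-fold higher in 18, which lay above every other array. The follistatin-related Fstl1 was at 11.60 ± 0.035 in 18 and 9.45 ± 0.027 in 19. The angiopoietins, ligands of the endothelial receptor Tek, were split. Angpt1 was at 6.68 ± 0.058 in 18 and 4.72 ± 0.165 in 19, whereas Angpt2 was at 6.04 ± 0.132 in 18 and 8.48 ± 0.082 in 19, and all other arrays were at 7.67 or more for Angpt2.

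The receptors of the gp130 family, which bind interleukin 6, leukaemia inhibitory factor (LIF) and oncostatin M, were higher in 3 and lower in 1 of 6 measured (median 0.35). All genes tested gave 17.4% higher and 21.3% lower. The LIF receptor Lifr was at 8.47, 8.56 and 8.67 in subclone 18 and at 5.98, 5.97 and 6.05 in subclone 19, against 4.09 to 4.95 elsewhere. It was highest in 18 and next in 19, and the pair exceeded the other 6 subclones by 2.80 ± 0.048. The shared chain gp130 (Il6st) was at 10.14 ± 0.148 in 18 and 8.98 ± 0.075 in 19, on opposite sides of the range elsewhere, 9.41 to 9.93. The interleukin 6 receptor Il6ra was lower in 18 (-1.24 ± 0.086), and the oncostatin M receptor Osmr was higher (0.48 ± 0.064).

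Apoptosis genes included 1 of the largest differences. Birc3, an inhibitor of apoptosis and ubiquitin ligase of NF-kappaB signalling, was at 4.67, 4.96 and 4.65 in subclone 18, against 8.86, 8.86 and 8.87 in subclone 19 and 7.45 to 9.07 elsewhere, 17.2-fold lower in 18. Bcl2, the founding survival protein of its family, was at 9.72 ± 0.109 in 18 and 11.15 ± 0.059 in 19, and the caspase 8 regulator Cflar differed by -0.99 ± 0.046. Both lie on chromosome 1, where the median over expressed genes was -0.41, and its part in these values was not tested. The pro-apoptotic Bik was lower (-0.69 ± 0.156) and Bbc3 higher (0.90 ± 0.182). Of 20 members of this list, 5 were higher and 9 lower in 18 (median -0.09), beside 17.4% and 21.3% over all genes.

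Of 29 p53 targets, 10 were higher and 7 lower in subclone 18 (median -0.05), and without replicate 1 of subclone 18 only 4 were lower (median 0.001). Beside this list and the ERK and NRF2 lists stand 17.4% higher and 21.3% lower over all genes. The kinase gene Plk2 was at 10.49, 10.31 and 10.54 in 18, against 8.85, 9.01 and 9.04 in 19 and 8.87 to 9.22 elsewhere, so only 18 was high. The repair gene Ddb2 was higher (0.55 ± 0.078) and the growth arrest gene Gadd45a lower (-0.93 ± 0.042). Among 25 output genes of the ERK pathway, 3 were higher and 7 lower (median -0.13), with Spry1 (1.56 ± 0.104) and Spry2 (0.90 ± 0.039), inhibitors of receptor tyrosine kinase signalling, on one side and the phosphatases Dusp5 (-1.50 ± 0.115) and Dusp4 (-0.88 ± 0.075) and the early gene Ier3 (-0.87 ± 0.068) on the other. In the list of 30 NRF2 targets and glutathione enzymes, 7 were higher and 12 lower (median -0.11). The glutathione transferase Gsta3 was at 5.06, 5.24 and 4.80 in 18 and at 7.90, 8.09 and 8.11 in 19 (-3.0 ± 0.153). Gsta2 (-1.41 ± 0.153), Gstt1 (-1.07 ± 0.068), the haem oxygenase Hmox1 (-0.76 ± 0.206) and the epoxide hydrolase Ephx1 (-0.67 ± 0.048) were lower as well, and the transferases of the alpha class are close copies whose probe sets may share signal.

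Markers of other cell types were partly at the low end. Counts of higher and lower members in each of these marker lists stand beside 17.4% and 21.3% over all genes. The members that stayed under a level of 5.3 in all subclones were 12 of 21 leukocyte markers, 6 of 12 endothelial markers, 6 of 15 fibroblast, pericyte and adipocyte markers and 4 of 14 lung epithelial markers. Of the leukocyte markers 0 were higher and 4 lower in subclone 18 (median 0.03), but 3 were higher without replicate 2 of subclone 18, 1 without replicate 1 of subclone 19 and 2 without replicate 2 of subclone 19. The pan-leukocyte gene Ptprc averaged 4.71 ± 0.288 in 18 and 4.54 ± 0.051 in 19. The summed intensity of the list was 1111.3 to 1154.8 in 18, 1532.4 to 1594.8 in 19 and 906.7 to 1577.4 elsewhere. Its largest member difference was in Cd68, a lysosomal glycoprotein, at 6.14 ± 0.119 in 18 and 8.66 ± 0.13 in 19, and Lyz2 (-0.67 ± 0.064) and Cd14 (-0.20 ± 0.050) differed by less. Cd4, at the low end, differed by -0.25 ± 0.091.

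Of 12 endothelial markers, 1 was lower in 18 and none higher (median -0.02), namely the VEGF receptor Flt1, at 6.25, 6.53 and 6.70 in 18 and at 8.69, 8.93 and 9.07 in 19. Elsewhere Flt1 was at 8.43 or more, while the endothelial adhesion gene Pecam1 averaged 4.53 ± 0.138 in 18 and 4.57 ± 0.361 in 19. The list summed to 256.2 to 302.8 in 18, 596.0 to 704.7 in 19 and 538.7 to 884.3 elsewhere. Of 15 fibroblast, pericyte and adipocyte markers, 5 were higher and 2 lower (median 0.20), with sums of 13449.0 to 14196.5 in 18, 11796.4 to 12014.2 in 19 and 12599.2 to 19428.8 elsewhere. Beside Pdgfrb, lumican (Lum) was higher in 18 (1.27 ± 0.095), as was Mcam (0.76 ± 0.099), and the adipocyte fatty acid carrier Fabp4 was lower (-0.47 ± 0.107). The defining pericyte and adipocyte genes Rgs5 (5.49 ± 0.084 in 18, 5.23 ± 0.116 in 19) and Adipoq (4.79 ± 0.092 in 18, 4.81 ± 0.091 in 19) did not pass the test.

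Of the 14 markers of lung epithelium, in a line labelled as lung carcinoma, 6 were under a level of 5.3 in both subclones of the pair. The lineage factor Nkx2-1 and the club cell gene Scgb1a1 were among these 6. The lineage factor Nkx2-1 averaged 4.38 ± 0.363 in 18 and 4.25 ± 0.081 in 19, and the club cell gene Scgb1a1 averaged 4.91 ± 0.337 in 18 and 4.79 ± 0.085 in 19. In the whole list, 1 was higher and 3 lower in 18 (median -0.06; 2 higher without replicate 3 of subclone 18), with sums of 1160.9 to 1192.4 in 18, 1468.9 to 1626.4 in 19 and 1097.7 to 2144.3 elsewhere. Hopx (-0.61 ± 0.050), Aqp5 (-0.54 ± 0.058), Abca3 (-0.26 ± 0.081) and Sftpc (0.61 ± 0.145) were the 4. With probe sets averaged, Abca3 (-0.11) and Sftpc (0.24) did not pass the test.

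What the pair shared was examined as its mean against the equally weighted mean of the other 6 subclones, a contrast orthogonal to the difference between 18 and 19. Of 18193 genes, 130 (0.715%) differed with an adjusted p under 0.05, an at least 2-fold difference and all 6 arrays beyond all 17 others, 46 (0.253%) higher in the pair and 84 (0.462%) lower. The 2-fold minimum applied to the mean of the pair. That all 6 arrays lie beyond the rest is part of the rule for these genes. The contrast sets the pair against 6 subclones, yet its SE and p-values measure only the spread between arrays. Low Bgn and Col4a5 in this same contrast helped to choose the pair, so no p-value is given for its single genes. In 88 of the 130 each subclone was at least 2-fold from the other 6, in 28 only subclone 18 was and in 14 only subclone 19 was. Krt8, at -5.23 in 18 and -0.61 in 19, is among the 28, and Oplah, at -0.37 in 18 and -4.00 in 19, is among the 14. Bgn and Col4a5 were named when the pair was chosen and are given without a test. Bgn was at 5.45, 5.69 and 5.62 in subclone 18 and at 5.14, 4.57 and 4.85 in subclone 19, against 12.32 to 12.78 elsewhere. Col4a5 was at 4.68, 4.52 and 4.62 in 18 and at 4.38, 4.40 and 4.50 in 19, against 9.39 to 10.49 elsewhere. Neither gene overlapped between the pair and the rest. Col4a6, which encodes a further collagen IV chain, was at 5.12 ± 0.328 in 18, 4.82 ± 0.223 in 19 and 4.13 to 5.32 elsewhere, and did not pass the test.

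Bgn and Col4a5 lie on the X chromosome and chose the pair, so they were left out of the counts by chromosome. Of the 82 other genes lower in the pair, 19 lay on the X, as did 1 of the 46 higher ones. Among genes that reached a level of 7 in some subclone, 16 of 283 on the X (5.65%) and 63 of 9309 on autosomes (0.677%) were lower in the pair. The median of the X genes, with Bgn and Col4a5, was 0.007. These counts describe the pair, which was chosen for low X genes, and carry no test. Armcx2, a mitochondrial armadillo-repeat gene, was at 4.24, 4.33 and 4.36 in subclone 18 and at 4.11, 4.38 and 4.28 in subclone 19, against 10.81 to 11.19 elsewhere (-6.73 ± 0.040). The tetraspanin Tspan6 (-4.41 ± 0.045), the membrane protein genes Tmem47 (-4.68 ± 0.040) and Prrg1 (-3.81 ± 0.045), Maged2 (-3.64 ± 0.064) and Armcx3 (-3.54 ± 0.044) were near the low end in both subclones too. With Bgn and Col4a5, the 18 genes formed 10 runs along the 285 X genes that reached level 7, the longest of 4 genes (Armcx3, Armcx2, Zmat1 and Gprasp1), and 11 further protein-coding genes lie between Zmat1 and Gprasp1. They were thus not a single block. Not all of them were near the low end in the pair. Amot, an angiomotin, was the highest of the 18, at 10.28 in 18 and 8.55 in 19. Pcdh19 (7.323 in 18, 6.515 in 19), Gprasp1 (7.098 in 18, 7.001 in 19) and Zmat1 (6.462 in 18, 7.040 in 19) were also above the low end. These exceptions were chosen after their values were seen. Of the 18 genes, 14 differed by less than 0.5 between 18 and 19. Without Bgn and Col4a5, the RefSeq promoter windows of 15 of the 16 held a median of 17 CG pairs, against 18 in 237 other X genes that reached level 7.

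The non-coding RNA Xist, which coats an inactive X chromosome, was at 11.28, 11.37 and 11.48 in subclone 18 and at 11.12, 11.29 and 11.61 in subclone 19. In the other subclones its median was 5.61, but subclone 28 reached 11.19, so it was not private to the pair, and all 18 X genes were at 7.18 or more in subclone 28. Of 13 measured X inactivation and Y-chromosome genes, 2 were higher in 18 than in 19 and 1 was lower (median -0.04). The shares over all genes were 17.4% and 21.3%. Only 1 was higher without replicate 2 or 3 of subclone 18 or replicate 1 or 2 of subclone 19, and 2 were lower without replicate 1 of subclone 19. The 3 were the RNA helicase Ddx3x (0.34 ± 0.055), the translation factor gene Eif2s3y (0.50 ± 0.182) and the demethylase Kdm5c (-0.50 ± 0.068). The 9 probe sets of Kdm5c ran from -0.50 to 0.14, and their average, -0.09, did not pass the test. Eif2s3y stayed at 5.48 or less in every array.

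Off the X chromosome, Basp1, a membrane-bound signalling protein gene, was at 7.25, 7.34 and 7.30 in subclone 18 and at 6.12, 5.96 and 6.10 in subclone 19, against 7.46 to 12.24 elsewhere (-4.39 ± 0.031). Decorin (Dcn), a proteoglycan like biglycan, was at 8.97 ± 0.176 in 18 and 8.60 ± 0.017 in 19, against 9.95 to 12.23 elsewhere (-2.38 ± 0.042). All 6 arrays of the pair were below the rest for both. Among the shared high genes, the glycosyltransferase B3galnt1 was at 8.98, 9.01 and 9.02 in 18 and at 8.90, 8.79 and 8.75 in 19, against 4.16 to 6.34 elsewhere (4.04 ± 0.072). Sarcospan (Sspn), of the dystrophin complex, exceeded the rest by 2.78 ± 0.058, the zinc finger gene Zfp979 by 3.06 ± 0.061, Tmem51 by 2.37 ± 0.068, the galectin-like Lgalsl by 2.37 ± 0.055 and the prostaglandin receptor regulator Ptgfrn by 2.20 ± 0.040. Lysozyme 1 (Lyz1) exceeded it by 2.27 ± 0.053, Ctla2a, an inhibitor of cathepsins, by 2.37 ± 0.066 and AA414768 by 2.27 ± 0.092.

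By chromosome, small shifts ran over most genes of a few chromosomes. Among 8940 genes with a mean level of at least 7, the median difference between 18 and 19 was -0.03, but it was -0.41 on chromosome 1, where 91.8% of 523 genes were lower in subclone 18. It was -0.31 on chromosome 3, -0.29 on chromosome 19 and -0.17 on chromosome 6, where 73.9% of 452 genes were lower in 18 and 22 were apart and lower with 3 higher. On chromosome 1 the median of subclone 18 was -0.13 from the other 6 and that of 19 was 0.28, and on chromosome 3 they were -0.04 in 18 and 0.25 in 19, so the larger shift there was in 19. Chromosome 19 was the reverse, at -0.34 in 18 and -0.03 in 19, and 18 of its genes were apart and lower in 18 with 0 higher. Chromosomes 16 (0.23), 7 (0.23), 2 (0.16) and 13 (0.15) were shifted upward in 18 relative to 19. Chromosome 10 was raised in both subclones alike, by 0.26 in 18 and 0.29 in 19. The values are medians over genes and a description, and copy number was not measured.

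**Figure D5:**
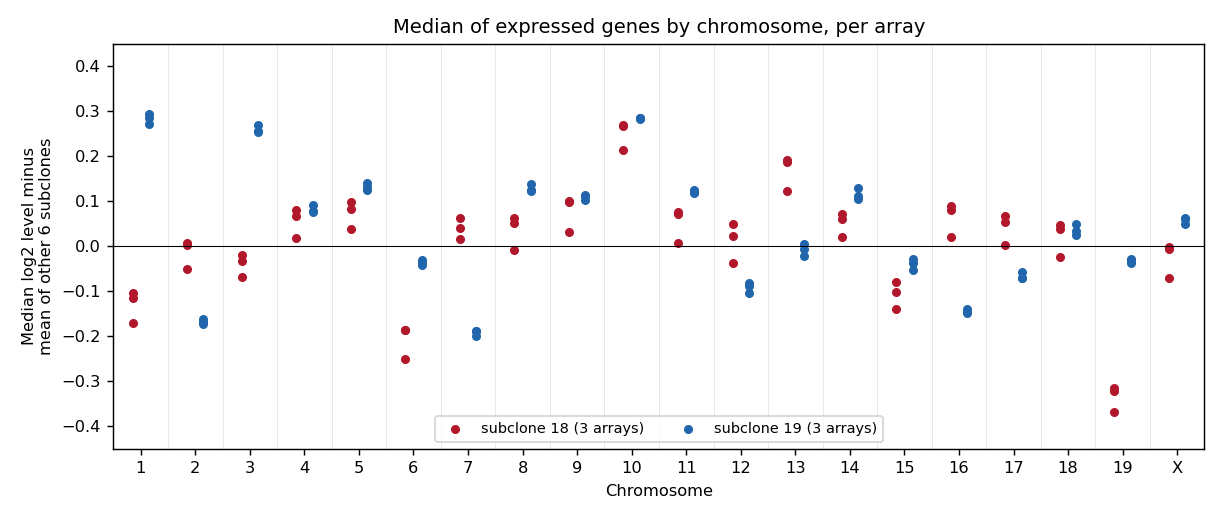
For each chromosome, points give the median over expressed genes (mean level of at least 7) of the log2 level minus the mean of the other 6 subclones, 1 point per array of subclone 18 (red) and subclone 19 (blue). On chromosome 1 the red points lie at -0.17 to -0.10 and the blue points at 0.27 to 0.30, and on chromosome 19 the red points lie at -0.37 to -0.31.

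Genes with more than 1 probe set gave a check within the arrays. Of the 90 named genes that were apart, 50 had several probe sets, and in 0 of them was another probe set apart in the opposite direction. In 31 of these, several probe sets reached a level of 7, and in 25 all of those were apart in the same direction. The 6 exceptions were Cadm1, Zfp503, Mmp9, Gbp7, Trib3 and Il6st. Among 9160 probe sets without a listed gene, 32 were higher and 43 lower in subclone 18 by the same rule (0.819%).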

How the data were processed

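Per the labels' protocols, RNA was purified on columns and biotin-labelled for Affymetrix arrays. The file deposited by the authors holds linear intensities between 0.61 and 17068.52, 15024 of them exactly 1, and the method by which the authors summarised and scaled them is not given in the sources used here. Of 45101 probe sets, 64 controls and 932 with several symbols were left out, 9160 unlisted ones were tested apart, and 34945 had 1 symbol, 34741 of them updated by Entrez identifier (RefSeq, GRCm38.p6). The probe set with the highest mean stood for each of 18193 genes (9010 had several). A linear model on log2(intensity + 16), with 1 coefficient for each of 8 subclones over 23 arrays, was estimated in R 4.3.3 by limma 3.58.1 (lmFit, eBayes, 15 residual degrees of freedom, Benjamini-Hochberg adjustment). It was checked on simulated data. No filter on low values was applied, so the shares over all genes include dim genes. A mean level of at least 7 was reached by 8940 of the 18193 genes, and shares over these alone are not given for the lists.

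Subclones were grouped by their labelled titles, and differences are 18 minus 19, or the pair minus the other 6. Members of 27 gene lists were counted by adjusted p alone (under 0.05), whatever their fold, and no set test was run. The genes named are those that chose the pair, the 15 largest differences per direction, up to 5 members per list with partners of the first genes, the 10 largest shared differences per direction and the 8 largest with opposite sides. Defining markers of other cell types and the exceptions said to be chosen after their values were seen were added. The pair, the lists and these rules were chosen with earlier results of these data known. Alternatives covered the pseudocount, scaling, low-value filter, probe set rule, replicate block, single arrays left out, adjustment over 28 pairs and a 2-fold minimum inside the test. The number of arrays limits the precision. Promoters came from RefSeq.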

Additional observations from a re-analysis of the deposited data

How the results depend on the processing

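The 535 genes apart became 912 (376 higher and 536 lower in subclone 18) with a pseudocount of 1 and 318 (115 higher, 203 lower) with 64. Requiring the 2-fold minimum inside the test left 298 (102 higher, 196 lower). The shared genes that were higher in the pair numbered 26 with a pseudocount of 64, against 46 with 16. A smaller pseudocount widens the differences of dim genes by construction. Under the filter on low values, quantile normalization, median centring, averaging of probe sets, adjustment over all 28 pairs and the fit on the 6 arrays alone, the total stayed between 398 and 535. The scaling alternatives moved the median of all genes by at most 0.035 and gave 207 higher and 318 lower (quantile) or 200 higher and 325 lower (centring). Leaving out each array of the pair in turn gave totals of 530 to 557 (180 to 198 higher, 335 to 370 lower) and shared totals of 131 to 137 (46 to 51 higher, 83 to 90 lower). With the replicate number as a block, the count was again 535, 181 higher and 354 lower, and only Cd4 among the named genes lost its call. Deviations of arrays with the same number correlated at -0.078, -0.039 and 0.007, so the numbers were not taken as pairing. H2-K1 turned to 0.12 under averaging of probe sets, against -0.51, and the cause was not tested. Over 162 named genes and all settings, 2467 calls kept direction and side of the threshold, 118 were lost (79 of them with the 2-fold minimum inside the test), 2 were gained and 1 reversed. For the 20 largest differences shared by the pair, 300 of 300 kept direction and an adjusted p under 0.05. The whole rule for shared genes was not reapplied to these 20, and differences so large could hardly miss that threshold. Across settings other than that minimum, the hypoxia list had 31 to 33 members lower in 18, the reticulum list 24 to 26, and the replication list 27 to 34 higher. Without detection calls, the level at which a dim gene is measured at all was not determined.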
